A study of Homo sapiens with 8 samples.

Results

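Copper and platinum transport genes were examined in OAW42-R cells with and without knockdown of the long noncoding RNA UCA1. The set comprises 10 listed genes, namely the uptake transporters SLC31A1, SLC31A2 and SLC22A3, the anion channel subunits LRRC8A and LRRC8D, the copper chaperones ATOX1, CCS and COX17, and the efflux ATPases ATP7A and ATP7B. They were chosen by name and found through the RefSeq accession of each non-control probe. Of the 10, 9 had a probe, 13 probes in all, and these 9 were among the 15455 genes tested. SLC22A3, an organic cation transporter, was not analysed here.

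OAW42-R is a cisplatin-resistant derivative of the serous ovarian cancer line OAW42, so that all arrays come from 1 cell line. The control cells (sictrl) received a pool of nontargeting siRNAs, and the siUCA1 cells received a mixture of 2 siRNAs against UCA1, those numbered 2 and 4 by the supplier, with no array for either siRNA alone. Both received 20 nM siRNA, and the labels name no cisplatin treatment in either condition. RNA was taken 24 h after transfection per the labels, whereas the paper's methods give a longer time. Each condition had 4 arrays, from independent experiments per the paper, with replicates named A1, M2, A2 and A3.

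Copper enters cells mainly through SLC31A1 (CTR1), is handed by small chaperones to its targets, and leaves through the P-type ATPases ATP7A and ATP7B. ATOX1 carries copper to these ATPases in the secretory pathway, CCS loads superoxide dismutase, and COX17 brings copper to cytochrome c oxidase in mitochondria. Cisplatin can bind to several of these proteins, and they have been studied as routes of platinum entry, sequestration and exit in ovarian cancer. The volume-regulated anion channel, built from LRRC8A with other LRRC8 subunits, also lets cisplatin pass, and LRRC8D favours that passage.

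Levels are log2 intensities relative to the 75th percentile of each array's non-control spots, so that a level of 0 is the intensity of that percentile. Between 20858 and 24039 spots per array were well above background, the scanner software's test against local background. The siRNA target UCA1 was lower in siUCA1, with a log2 fold change of -5.04 (adjusted p = 0.000122 in limma). Of 10 epithelial ovarian carcinoma markers, 6 were well above background on all 8 arrays (EPCAM, KRT8, KRT18, KRT19, CDH1 and PAX8), and WT1, MUC16, WFDC2 and MSLN were so on none. Of these 6, CDH1 was lower by 0.81 in siUCA1 (adjusted p = 0.0149 in limma), and the others did not pass, with log2 fold changes from -0.16 (PAX8) to 0.50 (EPCAM, adjusted p = 0.0675). None of 5 fibroblast markers was bright enough to be tested (COL1A1 was well above background on 5 arrays). The leukocyte marker CD14 was well above background on all 8 arrays and higher by 0.70 in siUCA1 (adjusted p = 0.0478 in limma), while PTPRC was so on 2 arrays and CD3E on none. The endothelial marker VWF was well above background on all 8 arrays with a log2 fold change of -0.08, while PECAM1 was so on 1 array and CDH5 on none. All arrays come from 1 cultured line, and the source of the CD14 and VWF signals was not tested. The surface trend in brightness that the scanner software removes was large on 2 arrays, with a root mean square of 0.321 on sictrl A3 and 0.287 on siUCA1 A1 against 0.0737 to 0.0943 on the other 6. Several results are also given without these 2 arrays.

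None of the transport genes passed the test. The difference between siUCA1 and sictrl had an adjusted p under 0.05 in 0 of 9 genes (limma, Benjamini-Hochberg over 15455 genes), where 11.6% of all genes tested had one (5.72% higher and 5.85% lower in siUCA1). At an unadjusted p under 0.05 there were 2, ATP7B and LRRC8D, against 27.6% of all genes. The log2 fold changes had a median of 0.06 over the 9 genes and 0.03 over all genes tested, and their absolute values a median of 0.14 and 0.20. The standard errors ran from 0.10 to 0.21, with a median over all genes of 0.15. The 95% intervals of the 9 genes together spanned a fall of 1.61-fold to a rise of 1.60-fold. Larger changes lie outside the intervals of these 9 probes. Single genes had narrower intervals, such as 0.78 to 1.08-fold for SLC31A1. Changes inside a gene's own interval are not resolved with 4 arrays per condition. In RNA of whole cultures, fewer cells with a transcript and less of it per cell cannot be told apart. Each of the 9 genes was well above background on all 8 arrays, and the background did not limit any of these values.

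**Figure D1:**
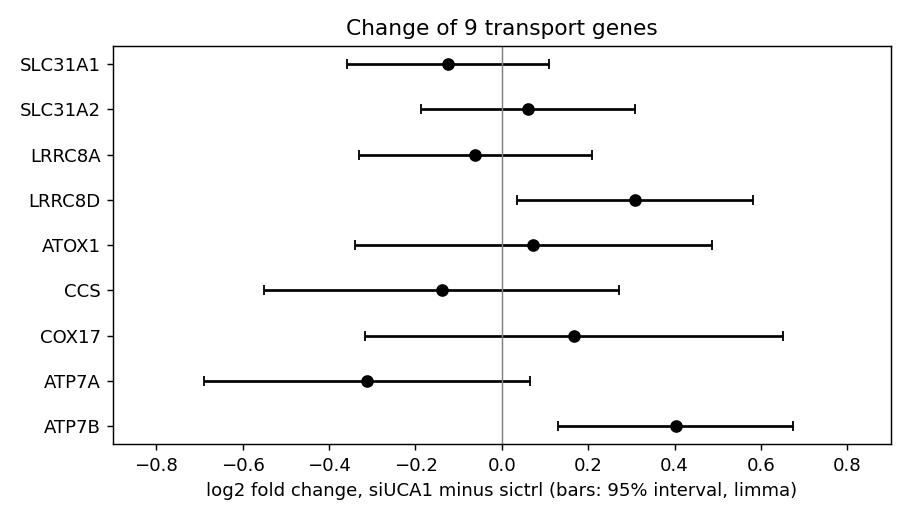
The log2 fold change of siUCA1 over sictrl (x axis) is shown for the 9 transport genes with its 95% interval from limma. The intervals of ATP7B (0.13 to 0.68) and LRRC8D (0.03 to 0.58) lie above 0 and those of the other 7 genes include 0, while no adjusted p was under 0.05.

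**Figure D2:**
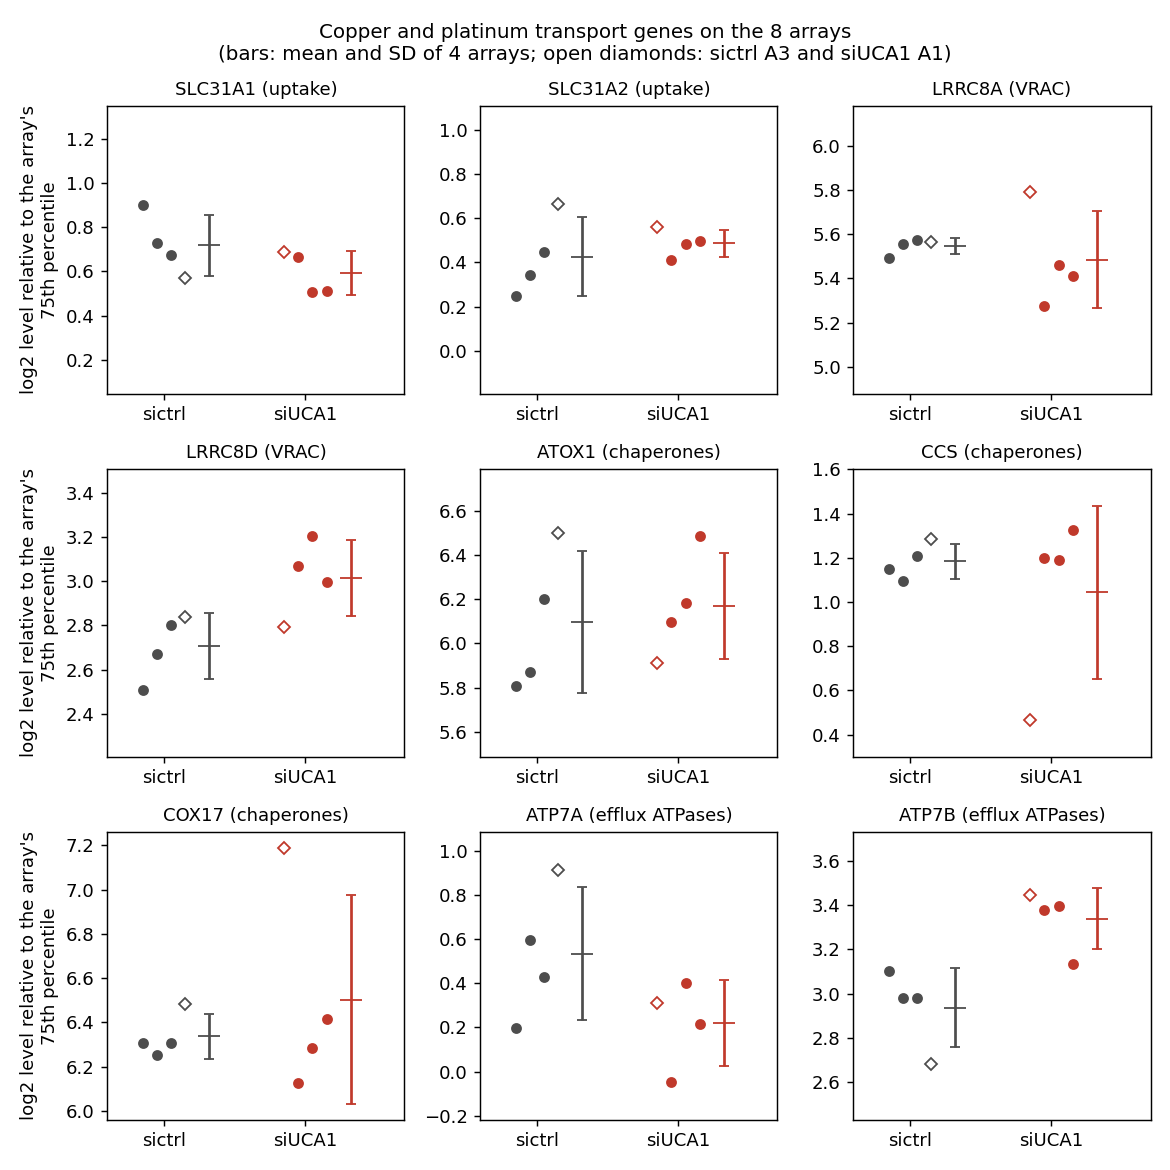
Log2 levels (y axis) of the 9 transport genes on the 4 sictrl and 4 siUCA1 arrays, in the order A1, M2, A2, A3, with mean and SD beside the points; every panel spans the same range in log2 units. Open diamonds mark sictrl A3 and siUCA1 A1. Only for ATP7B do the conditions not overlap, and the siUCA1 A1 point lies apart for CCS and COX17.

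The uptake transporters showed the smallest standard errors of the set. SLC31A1 (NM_001859), the high-affinity copper importer, was at 0.90, 0.73, 0.67 and 0.57 on the sictrl arrays A1, M2, A2 and A3, and at 0.69, 0.67, 0.51 and 0.51 on the siUCA1 arrays in the same order. The siUCA1 values lay within or just under the sictrl range, and the groups overlapped. Its log2 fold change was -0.12 (standard error 0.10, 95% interval -0.36 to 0.11, adjusted p = 0.484 in limma), and it was negative under every setting tried, between -0.22 and -0.06. The second SLC31A1 probe, on the same transcript, spread more widely, from -0.79 to 0.32 in sictrl and from -0.91 to -0.08 in siUCA1, with the lowest value of each condition on the 2 arrays with the large surface trend. Its difference was -0.30 on the log2 scale (95% interval -0.89 to 0.28, adjusted p = 0.496 in limma over all kept probes, standard error 0.26). That interval reaches a fall of 1.85-fold. Both probes thus had the same sign, and neither passed the test.

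SLC31A2 (NM_001860), the related CTR2 protein of intracellular membranes, was at 0.25, 0.34, 0.45 and 0.66 in sictrl and at 0.56, 0.41, 0.48 and 0.50 in siUCA1. All siUCA1 values fell inside the sictrl range. The log2 fold change was 0.06 (95% interval -0.19 to 0.31, adjusted p = 0.768 in limma), and scaling the arrays to their median instead turned its sign. With single arrays left out it ran from 0.0015 without sictrl A1 to 0.14 without sictrl A3.

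Neither subunit of the volume-regulated anion channel passed the test. LRRC8A (NM_019594), the subunit without which the channel does not form, was at 5.49, 5.55, 5.57 and 5.56 in sictrl, the tightest group of the set, and at 5.79, 5.28, 5.46 and 5.41 in siUCA1. The siUCA1 A1 array was above all sictrl arrays and the other 3 siUCA1 arrays below them. This gave a difference of -0.06 on the log2 scale (95% interval -0.33 to 0.21, adjusted p = 0.787 in limma). With sictrl A3 and siUCA1 A1 left out it was -0.16 (adjusted p = 0.201 in limma).

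LRRC8D (NM_018103), the subunit that opens the channel to larger and uncharged solutes, was at 2.51, 2.67, 2.80 and 2.84 in sictrl and at 2.79, 3.07, 3.20 and 2.99 in siUCA1. The siUCA1 A1 array was the only siUCA1 array within the sictrl range, which ended at sictrl A3. On average LRRC8D was higher by 0.31 in siUCA1, or 1.24-fold (95% interval 0.03 to 0.58 on the log2 scale, unadjusted p = 0.0312 and adjusted p = 0.136 in limma). It was above 0 under every setting tried, from 0.21 to 0.43. When sictrl A3 and siUCA1 A1, the 2 arrays with the large surface trend, were left out, it was 0.43 with an adjusted p of 0.0278 in limma, and when limma weighted the arrays it was 0.40 with an adjusted p of 0.0125. Under those 2 settings 25.6% and 31.1% of all genes had an adjusted p under 0.05.

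Of the chaperones, none moved beyond the spread between arrays. ATOX1 (NM_004045) was at 5.81, 5.87, 6.20 and 6.50 in sictrl and at 5.91, 6.10, 6.18 and 6.48 in siUCA1. The ranges of the conditions nearly coincided, and the log2 fold change was 0.07 (95% interval -0.34 to 0.49, adjusted p = 0.839 in limma). With sictrl A3 and siUCA1 A1 left out it was 0.29 (adjusted p = 0.183 in limma).

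CCS (NM_005125) was at 1.15, 1.10, 1.21 and 1.28 in sictrl and at 0.47, 1.20, 1.19 and 1.33 in siUCA1. A single array, siUCA1 A1, lay far under all the others, and the other 3 siUCA1 values were in or just above the sictrl range. The log2 fold change of -0.14 (95% interval -0.55 to 0.27, adjusted p = 0.669 in limma) became 0.05 without siUCA1 A1 and 0.09 without both arrays.

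COX17 (NM_005694) was at 6.31, 6.25, 6.31 and 6.48 in sictrl and at 7.19, 6.12, 6.28 and 6.42 in siUCA1. Here siUCA1 A1 was the highest array and the other 3 lay around the sictrl values. The log2 fold change of 0.17 (95% interval -0.32 to 0.65, adjusted p = 0.665 in limma) became -0.06 without siUCA1 A1 and -0.01 without both arrays.

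Neither efflux ATPase passed the test. ATP7A (NM_001282224), which exports copper across the plasma membrane and loads copper enzymes in the trans-Golgi network, was at 0.20, 0.60, 0.43 and 0.91 in sictrl and at 0.31, -0.05, 0.40 and 0.21 in siUCA1. The lowest array was a siUCA1 array and the highest was sictrl A3, but the conditions overlapped. Its mean difference was -0.31 on the log2 scale (95% interval -0.69 to 0.06, adjusted p = 0.261 in limma), and without sictrl A3 and siUCA1 A1 it was -0.22 (adjusted p = 0.324 in limma). With single arrays left out it ran from -0.42 to -0.19, the latter without sictrl A3.

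The 4 probes of ATP7A did not give the same difference. The 2 other kept probes, designed on NM_000052, had log2 fold changes of 0.00 (95% interval -0.30 to 0.31, adjusted p = 0.990 in limma over all kept probes) and -0.05 (95% interval -0.34 to 0.23, adjusted p = 0.824). The remaining probe was not kept, since it was well above background on 3 sictrl arrays and 1 siUCA1 array, and its levels ran from -3.10 to -1.90 in sictrl and from -4.64 to -2.29 in siUCA1. Its siUCA1 mean was the lower one and the conditions overlapped, but no change is read from it, since most siUCA1 values were not well above background. Whether the probes differ because they read different transcripts of ATP7A was not tested.

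**Figure D3:**
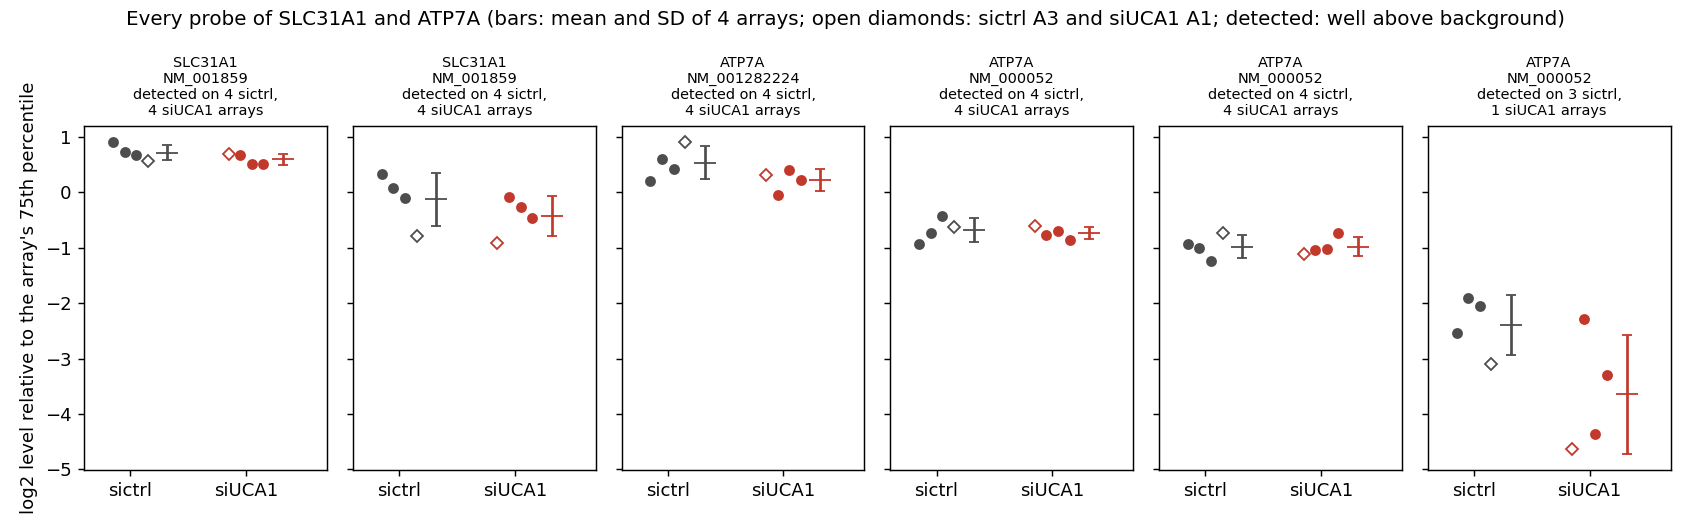
Log2 levels (y axis) of both SLC31A1 probes and all 4 ATP7A probes on each array, with mean and SD of 4 arrays, and the number of arrays on which each probe was well above background. Open diamonds mark sictrl A3 and siUCA1 A1. The NM_001282224 probe of ATP7A was lower by 0.31 in siUCA1 on average, whereas the means of the 2 other kept probes differed by 0.00 and -0.05.

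ATP7B (NM_000053), the ATPase mutated in Wilson disease, which moves copper into vesicles and out of the cell, was at 3.10, 2.98, 2.98 and 2.68 in sictrl and at 3.44, 3.38, 3.40 and 3.14 in siUCA1. Every siUCA1 array lay above every sictrl array, with the lowest siUCA1 value (3.14, A3) just over the highest sictrl value (3.10, A1), and the A3 array was the lowest of both conditions. The mean rose from 2.94 ± 0.18 (SD, n = 4) to 3.34 ± 0.14 (SD, n = 4). The difference of 0.40, or 1.32-fold (95% interval 1.09 to 1.60), had an unadjusted p of 0.00882 and an adjusted p of 0.0654 in limma, so it missed the threshold. The two-sided exact permutation test gave p = 0.0286, the smallest that 4 arrays against 4 allow. Of 15445 genes measured on all arrays, 20.9% also did not overlap between conditions, 11.2% with siUCA1 higher and 9.67% with siUCA1 lower, so that 1 gene of 9 is no more than that background.

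The ATP7B difference was above 0 under every setting tried, between 0.28 and 0.47. The settings under which it passed the threshold included limma's array weights (0.36, adjusted p = 0.0109), under which 31.1% of all genes passed. A fit in which limma's variance estimate followed the mean level and was made robust to outliers also passed it (0.40, adjusted p = 0.0498). Under that setting 11.8% of all genes did. With the median of each array used for scaling it was at 0.31 (adjusted p = 0.591). Without sictrl A3 and siUCA1 A1 it was 0.28 (adjusted p = 0.0782 in limma), and without any single array the adjusted p stayed between 0.0614 and 0.157.

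**Figure D4:**
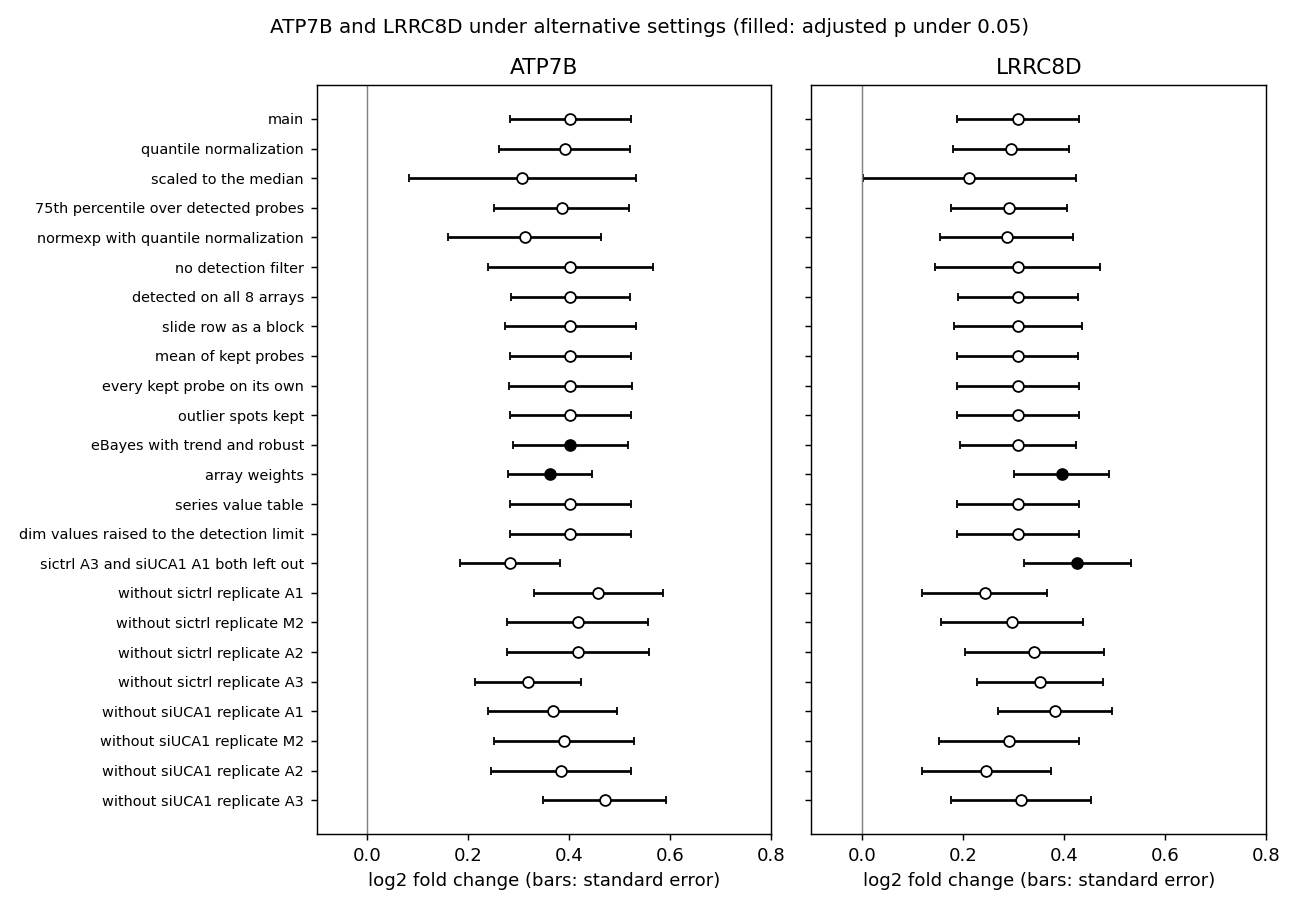
Log2 fold changes (x axis, bars show the standard error) of ATP7B and LRRC8D under the settings named on the left; filled points had an adjusted p under 0.05. All points lie above 0, from 0.28 to 0.47 for ATP7B and from 0.21 to 0.43 for LRRC8D, and few of them are filled.

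Genes of the same role were also compared with each other through the difference between their changes, which was computed array by array and decided on after the values had been seen. There were 6 such pairs. ATP7B minus ATP7A was 2.91, 2.38, 2.55 and 1.77 in sictrl and 3.13, 3.42, 3.00 and 2.92 in siUCA1, so that the difference between the changes of the 2 ATPases was 0.71 and the conditions did not overlap (two-sided exact permutation test, p = 0.0286, 0.171 after adjustment over the 6 pairs). This value rests on the brightest ATP7A probe, and the 2 other kept ATP7A probes changed by 0.00 and -0.05. An adjusted value of 0.171 is the lowest that a single pair at the smallest possible p can reach over 6 pairs, so that this pair could not have passed by itself. LRRC8D minus LRRC8A changed by 0.37 and overlapped between conditions (exact permutation test, p = 0.143, adjusted 0.429), and SLC31A2 minus SLC31A1 changed by 0.18 (exact permutation test, p = 0.343, adjusted 0.514). The 3 pairs of chaperones changed by -0.21 to 0.31, with adjusted values of 0.514 to 1 from the same exact permutation test.

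The promoters of the transport genes were searched for the core of the metal response element, the sequence bound by the zinc-dependent factor MTF1 in metallothionein promoters. The core was taken as TGCACNC or TGCGCNC on either strand, in windows from 250 bases before to 50 bases after the RefSeq start (GRCh38.p14). Of the 8 transport genes with a window, 5 held a match (ATP7B, LRRC8D, ATOX1, CCS and COX17) and ATP7A, SLC31A1 and LRRC8A held none, compared with 33.4% of 27305 genes with a window. Of the 4 listed metallothionein genes with a window, all held at least 3 matches, which 2.78% of all genes did. TGCGCA reads the same on both strands, so that the ATOX1 and CCS matches are each found on both strands at overlapping positions. A match is a stretch of letters and no evidence that a factor binds there. The matches in the transport genes, except that at an alternative start of COX17, are shown with 2 from metallothionein promoters for comparison, each with 10 bases on both sides, on the strand of the gene and with the core in capitals.
ATP7B, chr13:52012028-52012054, minus strand: ggctggccttTGCGCACagcggatcga
ATP7B, chr13:52012085-52012111, minus strand: cctgggcgccTGCGCCCccgttcccgg
LRRC8D, chr1:89821868-89821894, plus strand: ggcccgcaggTGCACCCagccgtccgc
ATOX1, chr5:151758634-151758660, minus strand: aggcctctagTGCGCACtctcggaagc
CCS, chr11:66593130-66593156, plus strand: gggccttgcgTGCGCACgcactaggag
COX17, chr3:119677453-119677479, minus strand: ttgcctcttcTGCGCACgcgctccttt
MT2A, chr16:56608520-56608546, plus strand: gcggggctttTGCACTCgtcccggctc
MT1B, chr16:56651823-56651849, plus strand: gcggggcctcTGCACCCcaccacctcc

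Other genes of copper and platinum handling were read from 8 lists with 76 genes, of which 54 were tested. Of these 54 genes, 9 (16.7%) had an adjusted p under 0.05 in limma, where 11.6% of all genes did, with 4 higher and 5 lower in siUCA1. Their median log2 fold change was 0.09, compared with 0.03 over all genes. The count of 9 ranged from 4 to 11 when single arrays were left out. Without sictrl A3 and siUCA1 A1 it was 18, where 25.6% of all genes were called. It was 8 when detection was required on all 8 arrays, where LRRC8C, which is not well above background on sictrl A3, was not tested. With median scaling, with normexp background correction together with quantile normalization, and with no detection filter, the calls of APP, MT1B, MTF1, PDHA1 and LRRC8C were lost, and those of GLRX, COX11 and MT2A were lost only with no detection filter. With the slide row as a block, APP, MT1B, MTF1 and PDHA1 were not called (adjusted p 0.0601 to 0.0793).

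The metallothioneins, small cysteine-rich proteins that bind zinc and copper, held the lowest value among the lists. The list has 9 tested genes, which include the regulators MTF1 and SP1, and its median was -0.48. Of these 9, 3 passed as lower and 1 (MTF1) as higher in siUCA1, where 11.6% of all genes passed. MT1F (NM_005949) fell from 1.22, 2.09, 2.06 and 2.03 in sictrl to -0.43, -0.01, 0.46 and -0.12 in siUCA1, a change of -1.87 on the log2 scale or 3.67-fold down (adjusted p = 0.00364 in limma, standard error 0.24). It was called under all settings tried. MT2A (NM_005953), usually the most abundant metallothionein in human cells, was at 3.31, 3.73, 3.79 and 3.92 in sictrl and at 2.57, 2.68, 2.93 and 3.05 in siUCA1, with no overlap and a log2 fold change of -0.88 (adjusted p = 0.0122 in limma). MT1B fell by 0.68 (adjusted p = 0.0486 in limma), a call that was lost when any array other than sictrl A1 was left out (adjusted p 0.0636 to 0.119), and without sictrl A3 and siUCA1 A1 it was -0.44 (adjusted p = 0.0703). MT1E and MT1X were at -0.82 and -0.48 and did not pass (adjusted p 0.191 and 0.117), MT1A and MT3 were at -0.05 and 0.21, and MT1G, MT1H and MT1M were not detected well enough to be tested. Metallothionein genes are near-identical in sequence, and how far their probes bind each other's transcripts was not tested. MTF1, the zinc sensor that drives metallothionein genes, rose by 0.40 (adjusted p = 0.0466 in limma), a call that held without siUCA1 A1 or without sictrl A3 and was lost without any other single array (adjusted p 0.0970 to 0.124). SP1 was at 0.20 (adjusted p = 0.210).

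Among copper trafficking partners, 2 of 10 tested genes passed, where 11.6% of all genes did. GLRX, the glutaredoxin that reduces the copper-binding cysteines of the ATPases, was at 2.28, 2.11, 2.37 and 3.14 in sictrl and at 1.31, 0.74, 0.84 and 1.19 in siUCA1. No siUCA1 array reached the sictrl range, and the change was -1.46 on the log2 scale or 2.75-fold down (adjusted p = 0.00728 in limma, standard error 0.23). APP, the amyloid precursor protein, which binds and reduces copper, was at 3.82, 3.61, 3.84 and 4.72 in sictrl and at 4.97, 4.78, 4.75 and 5.26 in siUCA1, and it rose by 0.95 (adjusted p = 0.0372 in limma). The APP call was lost when any array other than sictrl A3 was left out (0.82 to 1.01, adjusted p 0.0562 to 0.103). With the mean of its kept probes it was also lost (0.80, adjusted p = 0.0790). It held without sictrl A3 (1.19, adjusted p = 0.00429) and without sictrl A3 and siUCA1 A1 (1.18, adjusted p = 0.00421). The trafficking factors COMMD1, AP1S1 and AP1M1, which act on ATP7A or ATP7B, were at 0.05, 0.17 and 0.05 with adjusted p of 0.871, 0.428 and 0.888.

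In mitochondrial copper delivery, 1 of 9 tested genes passed, where 11.6% of all genes did. COX11, which places copper in cytochrome c oxidase subunit 1, was at 5.09, 5.11, 5.04 and 5.14 in sictrl and at 4.50, 4.19, 4.17 and 4.41 in siUCA1, a change of -0.78 on the log2 scale (adjusted p = 0.00386 in limma, standard error 0.10). SCO1 and SCO2, which receive copper from COX17 for subunit 2, were at 0.00 and -0.03 (adjusted p 0.986 and 0.870), with standard errors of 0.08 each. Of the genes listed for protein lipoylation and the enzyme complexes with lipoylated subunits, to which excess copper binds, 1 of 10 passed. PDHA1, a pyruvate dehydrogenase subunit that is not itself lipoylated, rose by 0.35 (adjusted p = 0.0473 in limma), a call that was kept without siUCA1 A1 and lost without any other single array (adjusted p 0.0585 to 0.135). It was also lost with quantile normalization (0.28, adjusted p = 0.0998) and with the percentile taken over detected probes (0.33, adjusted p = 0.0548). FDX1, the ferredoxin needed for lipoylation, was at -0.21 (adjusted p = 0.504).

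Of the remaining LRRC8 subunits, 1 of 3 had an adjusted p under 0.05, where 11.6% of all genes had one. This subunit, LRRC8C, entered the test only through its siUCA1 arrays. LRRC8C was at -1.51, -1.31, -1.48 and -2.56 in sictrl, where it was well above background on 3 arrays, and at -0.73, -0.64, -0.46 and -0.72 in siUCA1. The conditions did not overlap. The fitted difference of 1.08 (adjusted p = 0.0294 in limma) includes the sictrl A3 value, which was not well above background, and is no measure of the size of the change. It was 0.80 without sictrl A3 (adjusted p = 0.00552) and 0.83 without sictrl A3 and siUCA1 A1 (adjusted p = 0.00359). With detection required on all 8 arrays LRRC8C was not tested. With normexp and quantile normalization together the difference was 0.40 (adjusted p = 0.207). The call was lost without sictrl A1, sictrl A2, siUCA1 M2, siUCA1 A2 or siUCA1 A3 (adjusted p 0.0534 to 0.0859). LRRC8B and LRRC8E were at -0.03 and -0.08 and did not pass (adjusted p 0.915 and 0.589).

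No gene passed among 4 tested metalloreductases and divalent metal transporters, 6 tested copper enzymes and 3 tested other platinum transporters. At an unadjusted p under 0.05 in limma there were 1, 1 and 2, respectively, where 27.6% of all genes had one. The largest differences in these lists were 0.33 for SLC11A2 (DMT1, adjusted p = 0.0813 in limma), 0.57 for PAM, a copper-dependent peptide amidase (adjusted p = 0.0928), and 0.50 for the carnitine transporter SLC22A5 (adjusted p = 0.156). SLC11A2 and PAM passed when sictrl A3 was left out, at 0.39 (adjusted p = 0.0434) and 0.72 (adjusted p = 0.0268), whereas SLC11A2 was at 0.26 (adjusted p = 0.106) without siUCA1 A1. Without both arrays they were at 0.32 (adjusted p = 0.0208) and 0.79 (adjusted p = 0.0157), and with the mean of kept probes they were at 0.38 (adjusted p = 0.0326) and 0.25 (adjusted p = 0.532). With array weights, under which 31.1% of all genes passed, so did SLC11A2, PAM and SLC22A5 (adjusted p 0.0106, 0.00489 and 0.0259 in limma). SOD1, the enzyme that CCS loads, was at 0.09 (adjusted p = 0.762). The lists were chosen with earlier results of these arrays known, so their counts are descriptions.

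**Figure D5:**
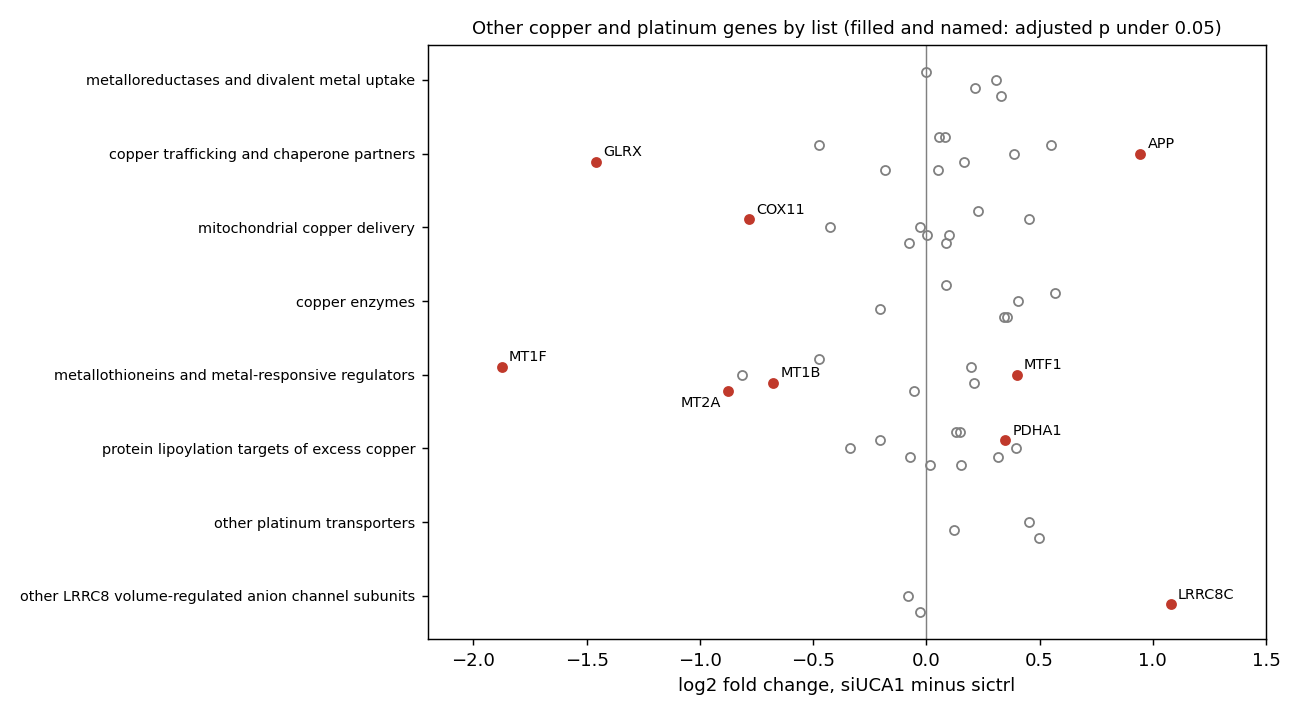
Log2 fold change of siUCA1 over sictrl (x axis) for each tested gene of the 8 lists (y axis, points offset within a list to separate them). Filled, named points are the 9 genes with an adjusted p under 0.05 in limma, from MT1F at -1.87 to LRRC8C, whose value of 1.08 includes an array not well above background and was 0.80 without it.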

How the data were processed

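Total RNA of OAW42-R cells was hybridized to 8 one-color Agilent 8x60k arrays. The authors deposited the output of Agilent Feature Extraction 10.7.3.1 (per the labels), in which each spot has an intensity after correction for background and surface trend, with no normalization between arrays. The value table of the series held the same numbers. The paper names limma with Benjamini-Hochberg correction and no normalization.

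From the deposited intensity, log2 values minus each array's 75th percentile of non-control spots were computed, without spots marked as outliers, and the mean over each probe's spots was taken. Probes had to be well above background on all 4 arrays of either condition, which 19046 were, and the brightest of them stood for each of 15455 genes. Accessions were named through RefSeq (GRCh38.p14), which matched 31104 of 58201 probes. Each unmatched accession was kept under its own name and counted as a gene. limma 3.58.1 in R 4.3.3 was fitted on all genes, after a test of the procedure on simulated data, and a gene is called at an adjusted p under 0.05. For single genes a two-sided exact permutation test was added. Tables and figures were made with pandas 2.3.3 and matplotlib 3.10.9 in Python 3.11.15.

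Genes named are UCA1, all listed transport genes, and from each list the called genes (at most 4) or, with none called, the gene with the largest change; other genes were named after their values were seen. The transport genes, lists and alternatives were chosen with earlier results of these data known. The alternatives were other scalings, background corrections, detection filters, blocks, probe summaries, variance models, array weights and arrays left out. With 4 arrays per condition, the number of arrays and the spread between them limit the precision.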

Additional observations from a re-analysis of the deposited data

Results flagged for a closer look

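In a group of 4 arrays, the highest or the lowest value was marked when its gap to the nearest other value was above Dixon's 95% critical value. The 156 groups were the levels of UCA1, of each kept probe of the transport genes, of the tested list genes and of the tested markers, and 3 array measures. Of these, 22 were marked (14.1%), where chance gives about 5%. The surface trend was marked on sictrl A3 (0.321, the other sictrl arrays 0.0790 to 0.0925) and on siUCA1 A1 (0.287, the other siUCA1 arrays 0.0737 to 0.0943). Of 20 marked gene levels, 8 were on sictrl A3 and 6 on siUCA1 A1.

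On siUCA1 A1, CCS was at 0.465, under 1.19 to 1.33 on the other 3 siUCA1 arrays, and was the single transport gene marked. On the same array, SLC11A2 was at 2.59 (others 2.30 to 2.33), AP1M1 at 4.25 (3.63 to 3.69), COA6 at 3.29 (4.50 to 4.74), DLD at -0.034 (0.43 to 0.48) and DLST at 4.68 (3.89 to 4.02). On sictrl A3, PAM was at 3.06 (others 2.43 to 2.52), COA6 at 3.44 (5.10 to 5.12), SLC25A3 at 7.68 (8.70 to 8.89), GCSH at 4.80 (4.65 to 4.66), SLC47A1 at -1.05 (-0.05 to 0.06), KRT19 at 10.3 (9.41 to 9.54) and PAX8 at 5.80 (5.14 to 5.21). LRRC8C was at -2.56 on that array (-1.51 to -1.31) and was not well above background there. On arrays without a large surface trend, MT1F was at 1.22 (2.03 to 2.09), MT1A at 3.91 (4.20 to 4.21) and PDHB at 4.02 (4.42 to 4.46) on sictrl A1, PRNP at 2.63 (3.53 to 3.63) and LRRC8E at 2.35 (2.49 to 2.52) on sictrl M2, and LIPT1 at -0.267 (-0.56 to -0.55) on siUCA1 A3. The part of the surface trend in these values was not tested.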

How the results depend on the processing

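UCA1 was lower in siUCA1 under all 24 alternatives (log2 fold change -5.46 to -4.85). The number of all genes called, 1788, became 535 with median scaling, 416 with normexp and quantile normalization together, 76 with no detection filter, 4805 with array weights and 3957 without sictrl A3 and siUCA1 A1, and was 764 to 2319 with single arrays left out. Median scaling left 21.3% of calls higher in siUCA1, against 49.4%. Of the transport genes, 0 were called in the main setting, 1 with the replicate name as a block (ATP7B), 1 with trend and robust variance (ATP7B), 2 with array weights (ATP7B and LRRC8D), 1 without both arrays (LRRC8D) and 0 to 0 with single arrays left out. The count of 9 list genes became 4 with median scaling, 4 with normexp and quantile normalization, 1 with no detection filter, 5 with slide row as a block, 22 with array weights and 18 without both arrays, and was 4 to 11 with single arrays left out. With array weights 31.1% of all genes were called, and without both arrays 25.6%. Detection on all 8 arrays gives no value for LRRC8C.

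Of 216 log2 fold changes of transport genes under alternatives, 197 kept sign and call, 5 became called and 14 changed sign, none of these with a call. Median scaling gave -0.035 for SLC31A2 and -0.023 for ATOX1. Normexp with quantile normalization gave 0.0053 for LRRC8A, -0.044 for ATOX1 and -0.095 for COX17. CCS was at 0.017 with array weights, and without both arrays CCS was at 0.086 and COX17 at -0.014. With single arrays left out, the range was -0.16 to 0.0080 for LRRC8A (above 0 without siUCA1 M2), -0.032 to 0.21 for ATOX1 (below 0 without sictrl A1, sictrl M2 or siUCA1 A3), -0.23 to 0.054 for CCS and -0.062 to 0.29 for COX17 (both turned without siUCA1 A1). Of 287 values of named list genes, 220 kept sign and call, 58 lost the call, 9 gained it and 0 changed sign. The cause was not tested.

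Arrays with the same replicate name had deviations that correlated by 0.0383 (A1), 0.278 (M2), 0.216 (A2) and 0.127 (A3) over 15445 genes. Arrays of different names correlated by -0.311 to 0.205. The sictrl arrays M2 and A2 correlated best with their own name, and A1 and A3 did not. No label says that a name marks a shared experiment, so pairing by name is neither established nor excluded. With the replicate name as a block, 1727 genes were called, ATP7B among them (0.40, adjusted p = 0.0353 in limma), as was PAM (adjusted p = 0.0192), and LRRC8D was not (adjusted p = 0.0815).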
